A study of Mus musculus with 12 samples.

Results

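The cytosolic ribosome is built from a small and a large subunit, and each subunit is an rRNA scaffold covered by ribosomal proteins. The proteins of the small subunit carry names that start with RPS and those of the large subunit names that start with RPL, and a flexible stalk of acidic proteins on the large subunit recruits the translation factors. Their mRNAs are among the most abundant in growing cells, and many start with a run of pyrimidines (the terminal oligopyrimidine or TOP motif) through which mTOR signalling controls their translation. Some ribosomal proteins are also known to bind MDM2 and thereby stabilize p53 when ribosome assembly is disturbed. The genes described here are the protein-coding genes whose names start with Rpl or Rps in the deposited table, without the S6 kinase genes (Rps6k), Rps19bp1 and Rps27l. They number 93 of 54345 genes. Of these, 43 encode proteins of the large subunit, 31 proteins of the small subunit and 3 the stalk (Rplp0, Rplp1 and Rplp2). Another 6 are paralogues with a suffix to another member's name (Rpl3l, Rpl7l1, Rpl10l, Rpl22l1, Rpl36al and Rpl39l), and 10 carry names of processed copies (Rps27rt, and 9 with "ps" in the name) although their biotype is protein-coding.

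RNA was taken from H9c2 cells, a cardiomyoblast line that the study describes as rat, while the sample labels name the organism Mus musculus, the cell line H9c2(2-1), the cell type myoblast and the genotype WT. The 4 groups of 3 libraries were Unt (untreated), DOX (doxorubicin, the anthracycline whose cardiotoxicity was under study), D_DXZ (DOX with dexrazoxane, a clinical cardioprotectant) and D_MgHCF (DOX with magnesium hexacyanoferrate nanocatalysts), all for 6 h. No doses are given for the sequenced cells, and nothing states that the libraries of a group came from separate cultures, so the p-values measure the spread between libraries only. Each library held between 16626514 and 19365119 reads on genes. Values are FPKM (fragments per kilobase of gene length, scaled per library), which compare levels between genes per length. The library scaling was not in proportion to the summed reads, as described further on. Differences are on the log2(FPKM + 1) scale, and a gene was called at an adjusted p under 0.05 with limma across 25044 genes. Of 11 muscle lineage markers, Acta2 and Gata4 exceeded 2 FPKM in every library, whereas Myog, Myod1, Myf5 and Actc1 stayed at or below 0.153 FPKM. The summed level of these 11 genes was 275 to 337 FPKM in Unt and 236 to 453 FPKM in D_MgHCF, but 1489 to 2036 FPKM in DOX and 1231 to 1713 FPKM in D_DXZ, nearly all of it from Acta2. Single markers went both ways in DOX against Unt. Acta2 (2.63), Tnnt2 (0.75) and Tagln (0.18) were called higher, and Gata4 (-1.42), Des (-0.67) and Mef2c (-0.58) lower. All of these but Acta2 and Gata4 stayed at or below 1.57 FPKM. Of the markers of other cells, Ptprc, Adgre1, Epcam, Krt8, Krt18, Pecam1 and Cdh5 remained under 1 FPKM in every library. Cd68, a lysosomal protein of macrophages, was at 1.03 ± 0.125 FPKM (SD, n = 3) in Unt and was called higher in DOX (3.06 ± 0.400), D_DXZ (4.09 ± 0.262) and D_MgHCF (3.26 ± 1.41). The 4 fibroblast markers summed to 45.1 to 51.1 FPKM in Unt and 22.0 to 39.6 FPKM in D_MgHCF, but to 97.4 to 122 FPKM in DOX and 76.7 to 103 FPKM in D_DXZ. Single fibroblast markers went both ways in DOX against Unt. Col1a1 (1.77) and Dcn (0.13) were called higher, Pdgfra (-0.34) was called lower, and Col1a2 (0.42) was not called. Pdgfra and Dcn stayed at or below 0.828 FPKM. In D_MgHCF against DOX, 3 of the 4 were called lower and none higher, among them Col1a1 (-1.57) and Col1a2 (-2.86). The part of these markers in the results below was not tested.

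The start sites of these genes are shown first because the pyrimidine run lies there. RefSeq start windows (mouse, GRCm38.p6) were matched for 64 of the 93 genes, with 75 entries in all. A C followed by at least 4 C or T bases lay between 10 bases before and 20 bases after the start in 46 of the 75 entries (61.3%), compared with 35.8% of all 32851 windows in the same table. The run CTTTCC, which can lie inside such a tract, was present in 14.7% of the entries and in 1.29% of all windows. Between 250 bases before and 50 after the start, searched on both strands, CCGGAAG (34.7% against 8.86%), AAGATGG (16.0% against 6.34%) and GGGCGG (60% against 35.7%) were each more frequent than among all windows, and TATAAA was less frequent (9.33% against 13.6%). CACGTG was present in 10.7% against 7.15%. The following windows run 5′ to 3′ from 40 bases before to 20 bases from the start, with the tract in capitals. They were chosen to show strong tracts, a gene with an uncounted pyrimidine run (Rpl4), and the copy Rps27rt beside its parent. The run of Rpl4 crosses the edge of the searched bases, and the part inside them is too short for the rule. They are mouse reference sequences and may differ from those of the sequenced cells.
Rpl38, chr11:114668540-114668599, plus strand: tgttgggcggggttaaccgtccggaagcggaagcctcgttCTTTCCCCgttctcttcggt
Rpl35, chr2:39005112-39005171, minus strand: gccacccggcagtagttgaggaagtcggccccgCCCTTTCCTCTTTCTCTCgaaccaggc
Rpl13a, chr7:45128726-45128785, minus strand: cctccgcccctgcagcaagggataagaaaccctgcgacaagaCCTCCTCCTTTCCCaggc
Rps6, chr4:86857348-86857407, minus strand: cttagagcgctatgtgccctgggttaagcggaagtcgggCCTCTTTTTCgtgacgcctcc
Rps26, chr10:128626487-128626546, minus strand: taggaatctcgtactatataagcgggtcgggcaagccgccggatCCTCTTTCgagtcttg
Rpl4, chr9:64173347-64173406, plus strand: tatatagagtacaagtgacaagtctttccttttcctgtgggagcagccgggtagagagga
Rps27, chr3:90213629-90213688, minus strand: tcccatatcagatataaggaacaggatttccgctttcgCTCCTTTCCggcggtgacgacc
Rps27rt, chr9:114982720-114982779, minus strand: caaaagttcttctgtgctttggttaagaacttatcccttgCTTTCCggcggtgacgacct
The windows of Rps27 and Rps27rt share a run of 19 bases from CTTTCC onward and differ before it. The median log2 difference between DOX and Unt, described further on, was 1.53 for the 43 genes with a tract in the searched bases and 1.64 for the 21 without one there.

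Ribosomal protein genes were among the highest in every library. Their median level ranked at the 99.0 to 99.4 percentile of the genes tested in each of the 12 libraries. Rplp1, a protein of the stalk, had the highest mean FPKM of all 93 genes in each group, from 1579 ± 92.4 (SD, n = 3) in Unt to 6054 ± 602 in DOX. The median of the group means was 150 FPKM in Unt, 477 in DOX, 393 in D_DXZ and 160 in D_MgHCF. Rpl10l, Rpl39l, Rpl9-ps1 and Rpl36-ps4 were listed at 0 in all 12 libraries and were not tested, which left 89 genes. A count of 0 allows up to 3 reads per library. Rpl24, a large subunit protein, was listed at 0.475 to 5.2 FPKM. That value is uncertain, since an exon of Rpl24 overlaps another annotated gene on the same strand. Also, 6 other genes share a stretch of at least 150 bases at 95% identity or above with Rpl24. The read share held by all 93 genes is free of the library scaling. It was 4.16%, 4.35% and 4.31% in Unt, 7.02%, 7.56% and 7.23% in DOX, 6.57%, 7.11% and 6.61% in D_DXZ, and 5.41%, 4.56% and 3.29% in D_MgHCF. The DOX and D_DXZ libraries were all above the Unt and D_MgHCF libraries, and the D_MgHCF libraries spanned a range that included all those of Unt. The mean share was 4.27% ± 0.096 (SD, n = 3) in Unt, 7.27% ± 0.273 in DOX, 6.76% ± 0.302 in D_DXZ and 4.42% ± 1.06 in D_MgHCF. The mean share in DOX was 3.0 percentage points above that in Unt, a ratio of 1.70, with a two-sided exact permutation p of 0.1 and an adjusted p of 0.15 over 6 comparisons, and 0.1 is the smallest p that 3 against 3 libraries allow. The D_MgHCF and Unt shares differed by 0.148 points (exact permutation p = 0.7, adjusted p = 0.7), and the D_DXZ and DOX shares by -0.505 points (exact permutation p = 0.2, adjusted p = 0.24). The 95% exact binomial interval of each share was at most 0.0242 points wide and covers counting error only.

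**Figure D1:**
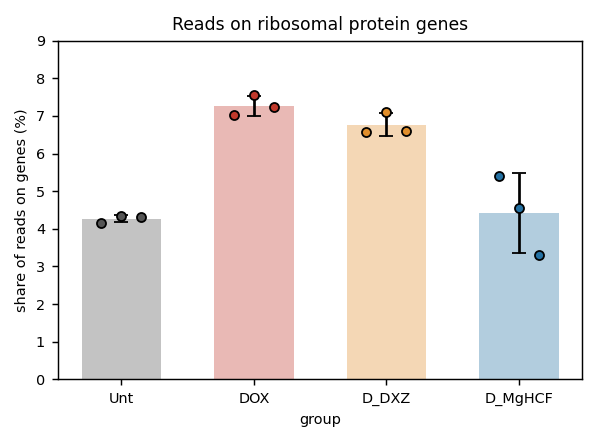
The share of reads on genes (%) held by the 93 ribosomal protein genes is plotted for each library (points), with the group mean (bars) and SD (error bars, n = 3). The DOX and D_DXZ libraries lie between 6.57% and 7.56%, above the Unt libraries at 4.16% to 4.35% and the D_MgHCF libraries at 3.29% to 5.41%.

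The comparison of DOX with Unt asked how DOX changed the family. Of the 89 genes tested, 84 rose and none fell, against 18.6% of all genes that rose and 19.9% that fell. The median difference over the 93 genes was 1.58, and that over all genes tested was 0, but the family median was 0.24 in TPM and -0.07 after quantile normalization, as described further on. In 86 genes every DOX library was above every Unt library (25.3% of all genes). Among the 77 genes of the subunits and stalk, the mean FPKM rose 1.80-fold (Rpl13a) to 4.67-fold (Rpl23a), with a median of 3.12-fold. All 3 stalk genes rose, as did 42 of 43 large subunit genes (median 1.57) and 30 of 31 small subunit genes (median 1.67), of which 17 and 13 were called higher in TPM. Rplp0, which anchors the stalk, was at 948, 1101 and 1043 FPKM in Unt and at 3826, 4965 and 4900 in DOX, a log2 difference of 2.14 ± 0.352 (SE, adjusted p = 0.000607). Its D_DXZ libraries were at 3176, 4275 and 4044 FPKM and its D_MgHCF libraries at 1935, 1374 and 1054. The DOX and D_DXZ libraries overlapped each other and lay above all others.

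Rpl23a, which contacts the exit tunnel of the large subunit, had the largest rise of the subunit genes. It was at 214 to 279 FPKM in Unt and 239 to 488 in D_MgHCF, at 870 to 1284 in DOX and 772 to 1088 in D_DXZ, and rose by 2.21 ± 0.275 (SE) in DOX. Rpl41 (2.20 ± 0.31), which encodes a very short basic peptide, Rpl37a (2.20 ± 0.223) and Rpsa (2.19 ± 0.274), also known as the laminin receptor, rose by nearly the same amount. The genes of the MDM2-binding proteins rose as well, Rpl5 by 1.28 ± 0.212 from 146 to 148 FPKM in Unt to 315 to 388 in DOX, Rpl11 by 1.57 ± 0.195 and Rpl23 by 1.47 ± 0.228. Rps6, the substrate of the S6 kinases, went from 398 to 414 FPKM in Unt to 905 to 1119 in DOX, a rise of 1.35 ± 0.205. Rps14 (1.26 ± 0.172), Rps19 (1.70 ± 0.197) and Rps26 (1.82 ± 0.224), whose loss is known to impair red cell production, also rose, and so did Rps3 (1.58 ± 0.173), Rpl10 (1.39 ± 0.228), Rpl22 (1.46 ± 0.198) and Rps27a (1.44 ± 0.298), which encodes a fusion with ubiquitin. In TPM the values turned for Rpl5 (-0.079), Rps6 (-0.020) and Rps14 (-0.11), and after quantile normalization they were negative for Rpl5 (-0.40), Rpl11 (-0.15), Rpl23 (-0.23), Rps6 (-0.64), Rps14 (-0.60), Rps26 (-0.065), Rps3 (-0.12), Rpl10 (-0.51), Rpl22 (-0.13) and Rps27a (-0.12). Rpl13a, known as a regulator of translation in inflammation, had the smallest called rise of the subunit genes. Its libraries were at 43.2, 46.1 and 47.8 FPKM in Unt and at 71.7, 85.2 and 89.9 in DOX, a difference of 0.83 ± 0.145 that turned negative in TPM (-0.52), over the summed reads (-0.11) and after quantile normalization (-0.33). Of the 89 genes tested, Rps27, Rpl17, Rpl7l1, Rpl3l and Rpl13a-ps1 did not pass. Rpl17 varied most within a group, with 42.7, 71.8 and 174 FPKM in Unt and 96.3, 328 and 298 in DOX.

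**Figure D2:**
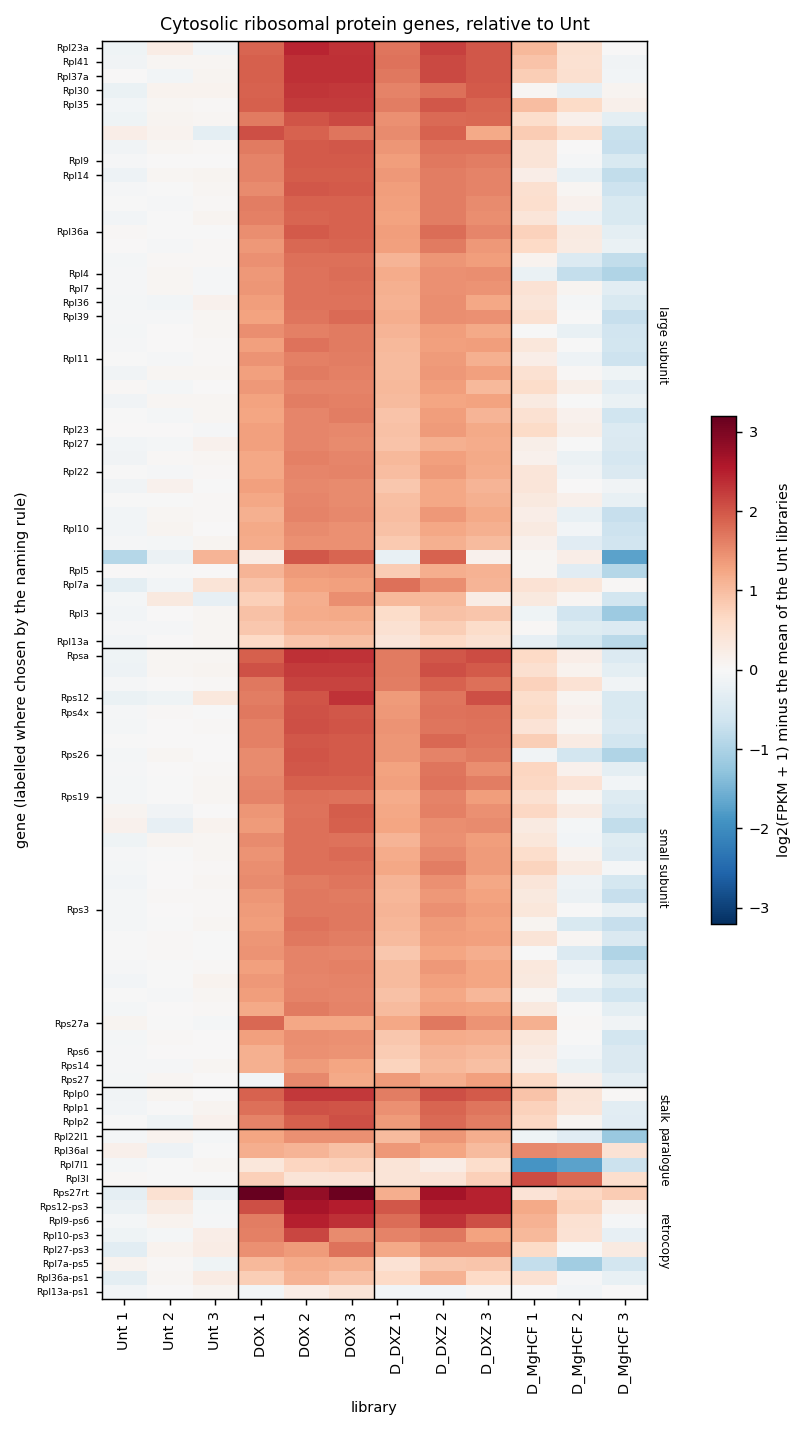
Each row is 1 of the 89 tested genes and each column a library, coloured by log2(FPKM + 1) minus the mean of the 3 Unt libraries, with genes grouped by class, ordered by their mean in DOX, and labelled where the naming rule chose them. The DOX and D_DXZ columns are red for nearly every gene, and the D_MgHCF columns lie near the Unt columns, with replicate 3 lower than replicates 1 and 2 for most genes.

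With DXZ added to DOX, the family was also higher than in Unt, and no gene was called against DOX alone. Against Unt, 84 of 89 genes rose in D_DXZ and none fell (15.9% and 18% of all genes), with a median difference of 1.28 (0.10 in TPM and -0.06 after quantile normalization) and a range of fold changes among the subunit and stalk genes from 1.43 (Rpl13a) to 3.91 (Rpl23a). Against DOX, no gene of the family and none of all 25044 genes passed the test (0% in each direction) with limma. The study used a test based on the negative binomial distribution and did report genes that DXZ significantly reversed. The 0 here thus belongs to this test and threshold and does not mean that DXZ changed no gene. At an unadjusted p under 0.05, 7 genes of the family were lower and none higher (4.97% and 4.56% of all genes), among them Rps27rt, Rpl18, Rpl7a-ps5, Rpl30, Rpl13a and Rpl34. The median difference was -0.29, and in 25 genes every D_DXZ library lay below every DOX library (8.64% of all genes). Rpl18 was 0.41 ± 0.144 (SE) lower on the log2 scale, with an unadjusted p of 0.0172 and an adjusted p of 0.438. With voom on the recovered reads, no gene of the family was called in this comparison either.

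With MgHCF added to DOX, the family was lower than in DOX, and its median lay near that of Unt. Against DOX, 84 of 89 genes fell and 1 rose, compared with 20.1% of all genes that fell and 31.4% that rose, and the median difference was -1.65 (0.066 over all genes tested). It was -0.69 over the summed reads, -0.45 in TPM and -0.17 after quantile normalization, with 76, 62 and 23 genes lower. In 85 genes every D_MgHCF library was below every DOX library (20.7% of all genes). Rps26, a protein at the mRNA exit of the small subunit, had the largest fall of the subunit genes. It was at 807, 1141 and 1102 FPKM in DOX and at 263, 188 and 145 in D_MgHCF, a difference of -2.38 ± 0.224 (SE, adjusted p = 1.78e-05). Its Unt libraries, at 269 to 298 FPKM, were all above those of D_MgHCF. Rpl4, a large subunit protein that lines the exit tunnel, fell from 1270, 1615 and 1679 FPKM in DOX to 420, 285 and 248 in D_MgHCF, a difference of -2.28 ± 0.229. Rpl30 (-2.18 ± 0.156) and Rpl14 (-2.10 ± 0.229) followed. In these genes the DOX and D_MgHCF libraries did not overlap. The stalk genes fell by 1.68 to 1.72, and Rps27, Rpl17, Rpl36al and Rpl13a-ps1 did not pass.

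Against D_DXZ, 85 genes were lower and 1 was higher in D_MgHCF (19% and 29.4% of all genes), with a median difference of -1.33 (-0.30 in TPM, with 43 lower, and -0.12 after quantile normalization, with 19 lower and 6 higher) and Rps26 lowest of the subunit genes at -2.10 ± 0.224. This is the direct comparison of the agents that were added to DOX, and the 3 libraries per agent share no sample. It is smaller than the difference from DOX in the median, but the difference of these differences was not tested.

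Compared with Unt, D_MgHCF had 3 genes higher and 5 lower of 89 (24.3% and 15.7% of all genes). The median was 0 over the 93 genes, which include the untested ones listed at 0, and 0.046 over all genes tested. In 3 genes every D_MgHCF library was above every Unt library (29.6% of all genes) and in 7 every one was below (19.3%). At an unadjusted p under 0.05, 4 were higher and 8 lower (30.7% and 18.5% of all genes). The genes that rose were Rpl3l, Rpl36al and Rpl35. Rpl35, which sits near the exit tunnel, was at 164, 184 and 180 FPKM in Unt and at 347, 267 and 196 in D_MgHCF, a difference of 0.58 ± 0.208 (adjusted p = 0.0476). The genes that fell were Rpl7l1, Rpl7a-ps5, Rpl4 (-0.64 ± 0.229), Rpl3 (-0.63 ± 0.229) and Rpl13a (-0.56 ± 0.145). Rpl3, whose protein lies near the peptidyl transferase centre, was at 233 to 260 FPKM in Unt and at 226, 161 and 110 in D_MgHCF. The D_MgHCF libraries stood apart from each other, with replicate 3 lowest in 83 of the 89 genes and replicate 1 highest in 84. Without replicate 3, 13 genes were higher and 3 lower, and without replicate 1, 2 were higher and 14 lower. Leaving out any other of the 12 libraries gave 2 higher and 3 or 4 lower. Rpl3, Rpl4 and Rpl35 lost their calls in most of these fits and in that with a replicate block.

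**Figure D3:**
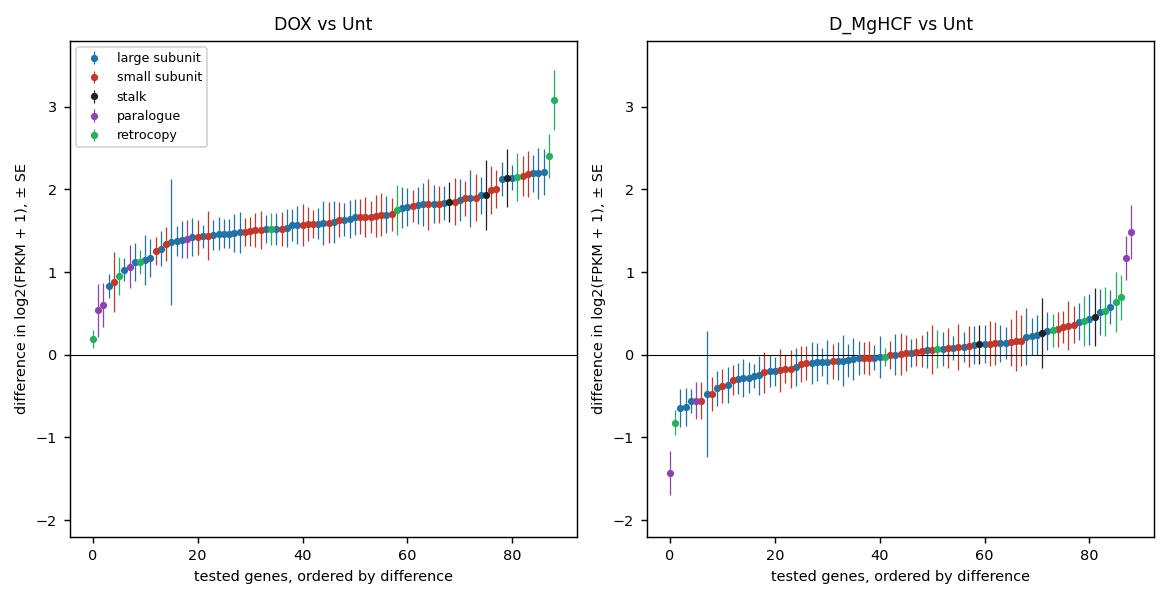
Differences in log2(FPKM + 1) between DOX and Unt (left) and between D_MgHCF and Unt (right) are plotted for the 89 tested genes, ordered by size and coloured by class, with SE as error bars. On the left every gene lies above 0, from 0.187 to 3.09, and on the right the genes lie on both sides of 0, from -1.43 to 1.48.

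To see which genes departed from the rest of the family, the median of the 93 genes was subtracted in each library before the fit. In DOX against Unt, 15 genes lay above the family (1.46% of all genes) and 27 below (91.4%), and 47 were not called. Above it were Rps27rt (1.39), Rps12-ps3 (0.71), Rpl23a (0.51), Rpl41 (0.50), Rpl37a (0.50), Rpsa (0.49), Rps2 (0.46) and Rplp0 (0.44). Below it were Rpl7l1 (-1.10), Rpl13a (-0.87), Rps27 (-0.82), Rpl18 (-0.67) and Rpl3 (-0.58), as well as Rpl5 (-0.42) and Rps6 (-0.35). Rpl13a-ps1, with 0 to 3 reads in each library, and Rpl3l, with 1 to 3 in Unt, are also counted below, but near 0 the log2(FPKM + 1) scale leaves little room to move, so that their centred values are mostly the shift of the family. Centring on the mean of the genes in place of the median gave 30 above and 11 below. The number below was 27 with all libraries, but 15 without DOX replicate 3. In D_MgHCF against DOX, 21 genes lay above (90.2% of all genes) and 13 below (1.56%), with Rpl3l (2.64), Rpl36al (1.80) and Rps27 (0.99) above and Rps27rt (-0.75), Rps26 (-0.68), Rpl4 (-0.59) and Rpl30 (-0.48) below. Rpl13a-ps1 is again counted, above, and its value there is that of the family shift. Rpl3l and Rpl36al are also low, and much of their centred values is that shift too. Their differences before centring, given with the paralogues further on, were smaller. With the mean in place of the median the counts were 8 above and 32 below, and without DOX replicate 3, 13 lay above. In D_MgHCF against Unt, 13 lay above (12.9% of all genes) and 16 below (7.63%), including Rplp0 (0.45), Rpl41 (0.43) and Rplp1 (0.26) above, and Rpl7l1 (-1.43), Rpl4 (-0.64), Rpl3 (-0.64), Rps26 (-0.56) and Rpl5 (-0.41) below. Of these 16, fewer were called without Unt replicate 2 (8), Unt replicate 3 (10) or D_MgHCF replicate 2 (9). These groups are named from the same libraries that set the family median.

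The paralogues were at lower levels than their partners and did not all move in the direction of the family. Rpl3l replaces Rpl3 in heart and skeletal muscle. It was at 3, 1 and 1 reads in Unt, at 19, 8 and 8 in DOX, at 10, 9 and 17 in D_DXZ and at 117, 113 and 21 in D_MgHCF. In FPKM, D_MgHCF was at 3.39, 2.70 and 0.521, and DOX at 0.762, 0.379 and 0.421, so that 1 of the 3 D_MgHCF libraries lay within the DOX range. The difference was 1.48 ± 0.323 against Unt (adjusted p = 0.00518), 0.95 ± 0.323 against DOX (adjusted p = 0.0316) and 0.94 ± 0.323 against D_DXZ (adjusted p = 0.0339). Rpl3l was thus the gene of the family called higher in D_MgHCF against both DOX and D_DXZ, while its partner Rpl3 fell. It was not called against DOX or D_DXZ with voom on the reads, with the other filters tried, or without D_MgHCF replicate 1 (0.65 against both) or 2 (0.77 against both). The call against DOX was also lost without DOX replicate 2 (0.88) or 3 (0.90), and that against D_DXZ without D_DXZ replicate 1 (0.88) or 2 (0.90). Its DOX libraries were all above those of Unt, but the difference of 0.54 ± 0.323 did not pass (adjusted p = 0.251).

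Rpl36al, whose protein is nearly the same as that of Rpl36a, was at 0.646, 0.308 and 0.454 FPKM in Unt, 2.29, 2.13 and 1.79 in DOX, 2.84, 2.48 and 1.94 in D_DXZ and 3.24, 3.14 and 1.02 in D_MgHCF. It rose in DOX (1.07 ± 0.264) and stood higher than Unt in D_MgHCF too (1.17 ± 0.264, adjusted p = 0.00634), with a difference from DOX of 0.10 ± 0.264 that did not pass. Rpl36a rose by 1.78 ± 0.243 in DOX and fell by 1.54 ± 0.243 in D_MgHCF against DOX. An exon of Rpl36al overlaps another annotated gene on the same strand, whose reads cannot be told apart.

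Rpl7l1, a nucleolar relative of Rpl7 that acts in early assembly, was the reverse of Rpl3l. Its level was 54.6, 56.0 and 59.8 FPKM in Unt, 73.5, 92.7 and 95.4 in DOX, and 14.6, 16.5 and 35.1 in D_MgHCF. The rise in DOX (0.60 ± 0.263) did not pass, whereas D_MgHCF was below Unt by -1.43 ± 0.263 (adjusted p = 0.00208) and below DOX by -2.03 ± 0.263. All 3 D_MgHCF libraries lay below all of Unt. Rpl22l1, the paralogue of Rpl22, was at 8.39 to 9.59 FPKM in Unt and at 22.7 to 26.0 in DOX, a rise of 1.40 ± 0.226, and fell in D_MgHCF to 7.97, 6.60 and 3.34. Rpl10l and Rpl39l, known from male germ cells, were listed at 0 beside Rpl10 at 199 to 899 FPKM and Rpl39 at 87.7 to 515. Rps4x, the X-linked gene with related copies elsewhere, rose by 1.90 ± 0.279 in DOX. No gene named Rps4l was among the 93.

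Most processed copies moved in the direction of the family. Of 8 tested, 7 rose in DOX against Unt (18.6% of all genes) and 7 fell in D_MgHCF against DOX (20.1%), compared with 3 and 3 in TPM and 5 and 4 over the summed reads. How reads of a line described as rat were assigned among near-identical mouse genes and copies is not given in the sources used here, so that a value listed for a copy may hold reads of its parent or of another copy. Rps27rt is a retrocopy on chromosome 9 (114982366 to 114982739 in GRCm38, minus strand) of Rps27 on chromosome 3. It was at 77.3, 133 and 82.4 FPKM in Unt, 945, 667 and 846 in DOX, 214, 610 and 523 in D_DXZ and 130, 149 and 166 in D_MgHCF. It had the largest rise of all 93 genes in DOX (3.09 ± 0.362), and Rps27 itself did not pass (0.88 ± 0.364, adjusted p = 0.0855). Rps27 was at 114 FPKM in the DOX library where Rps27rt was highest and at 354 in the one where it was lowest. The FPKM of both summed to 193, 260 and 205 in Unt, 1059, 1021 and 1127 in DOX, 529, 883 and 826 in D_DXZ and 318, 286 and 266 in D_MgHCF, a 4.88-fold rise of the mean in DOX. The share of that sum on the copy was 40.1% to 51.3% in Unt, 65.4% to 89.3% in DOX and 40.5% to 69.1% in D_DXZ. The DOX libraries were closer to each other in the sum than in either gene.

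Rps12 and Rps12-ps3 summed to 195 ± 26.8 FPKM (SD, n = 3) in Unt and 888 ± 180 in DOX, with 32.8% to 52.1% on the copy across all libraries. Rpl9 and Rpl9-ps6 summed to 147 ± 5.39 FPKM in Unt and 584 ± 116 in DOX. Rpl7a and Rpl7a-ps5 went another way in D_MgHCF, where Rpl7a was at 83.3 to 112 FPKM beside 64.9 to 108 in Unt, and Rpl7a-ps5 fell to 19.2 to 27.8 from 38.5 to 45.9 (-0.82 ± 0.149 against Unt, adjusted p = 0.00189). Rpl10-ps3 (1.75 ± 0.299), Rpl27-ps3 (1.52 ± 0.194) and Rpl36a-ps1 (0.95 ± 0.226) rose in DOX at no more than 12.0 FPKM. Rpl13a-ps1 was at or below 0.424 FPKM throughout. Among GENCODE M21 transcripts, 88 of the 93 genes share a stretch of at least 150 bases at 95% identity or above with another gene, with a median of 6 and up to 67 (Rpl21) such genes, so that values of single genes are uncertain where reads were shared. Rpl3l, Rpl8, Rpl39l and Rpl36-ps4 are among those with none. Exons of 39 genes overlap another gene, and whether the counting used strand is not given in the sources used here. Many of these overlap a gene on the same strand, among them Rpl4, Rpl5, Rpl10, Rpl13a, Rpl23a, Rpl24, Rpl30, Rpl36al, Rplp2, Rps2, Rps3, Rps12 and Rpsa.

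**Figure D4:**
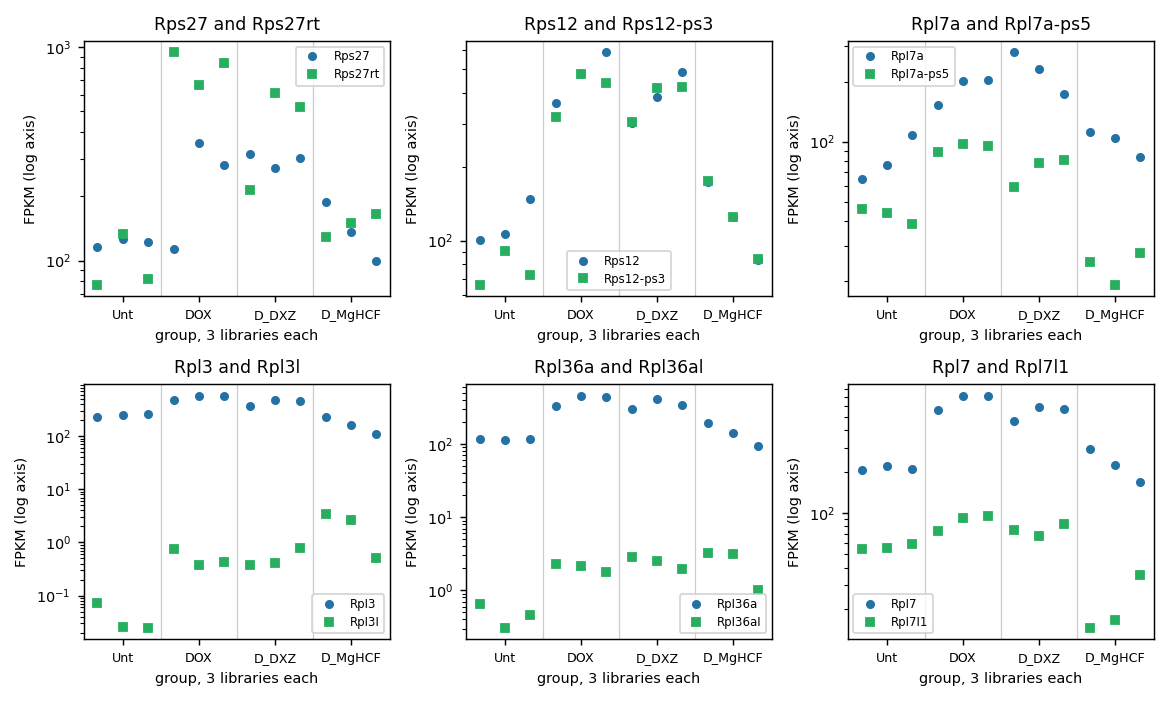
FPKM on log axes of 6 pairs of related genes is plotted for all 12 libraries, 3 per group, with circles for the first gene and squares for the copy or paralogue. Rps27 is lowest in the DOX library where Rps27rt is highest, and Rpl3l rises in D_MgHCF while Rpl3 and Rpl7l1 fall.

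The size of the DOX change, and after quantile normalization the sign of its median, depended on how libraries were scaled. The deposited FPKM contain a scaling that was 1.32 to 1.38 times the summed reads in Unt and 1.26 to 1.43 times in D_MgHCF, but 0.647 to 0.784 times in DOX and 0.747 to 0.892 times in D_DXZ. With FPKM set over the summed reads, the median difference between DOX and Unt was 0.64, with 70 genes higher and 0 lower, while the median of all genes with a mean FPKM of 1 or more was -0.69 (0.048 as deposited). In TPM, which sets the summed FPKM of each library equal, the family median was 0.24, with 36 higher and 2 lower, against -1.18 for all genes with a mean FPKM of 1 or more. The split of all calls moved too, from 18.6% higher and 19.9% lower to 8.28% and 33.1% over the summed reads and 4.44% and 40.8% in TPM. Relative to these shifts the family lay 1.54, 1.33 and 1.42 above the median of those genes with deposited FPKM, summed reads and TPM. Quantile normalization, which gives every library the same distribution of values, left a median of -0.07, with 15 higher and 23 lower, and voom on the recovered reads with the deposited scaling gave 1.61. The family median ranked at the 99.0 to 99.4 percentile in every library. Quantile normalization therefore leaves it little room to differ between groups, and cannot show a shift that all top-ranked genes share. In TPM, Gm23935, a gene of 57 bases annotated as a miRNA, bears on every value, since it held 2.94% to 3.12% of the summed FPKM in Unt and 2.83% to 7.15% in D_MgHCF, but 7.93% to 10.8% in DOX and 11.8% to 13.5% in D_DXZ.

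**Figure D5:**
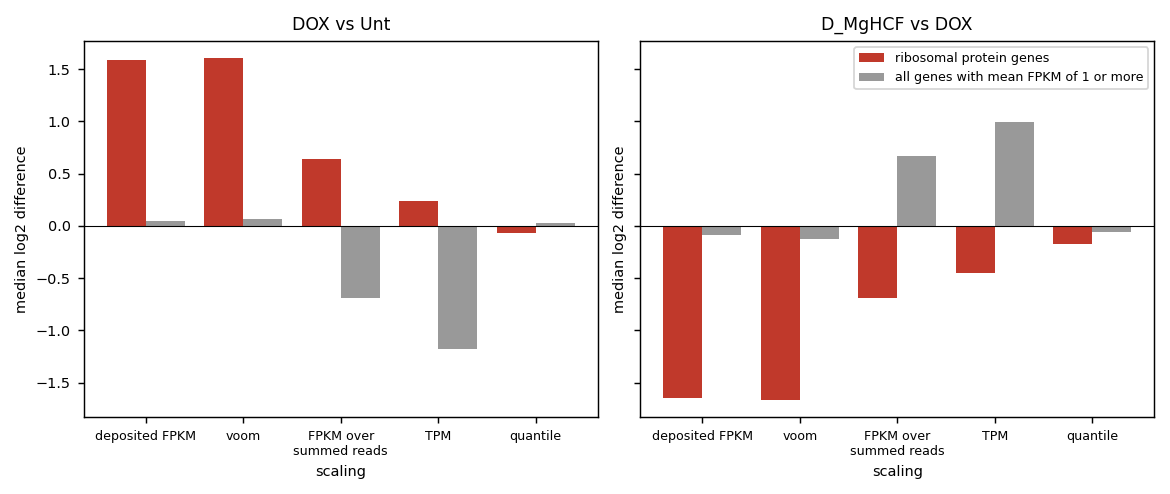
Median log2 differences under 5 scalings are drawn for the 93 ribosomal protein genes (red) and for all genes with a mean FPKM of 1 or more (grey), for DOX against Unt (left) and D_MgHCF against DOX (right). The family median lies above the grey median on the left under 4 scalings, and below it under quantile normalization (-0.07 against 0.03).

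For D_MgHCF against DOX the family median was -0.69 over the summed reads (76 lower and 1 higher), -0.45 in TPM (62 lower and 2 higher) and -0.17 after quantile normalization (23 lower and 3 higher), while the median of all genes with a mean FPKM of 1 or more went from -0.087 as deposited to 0.67, 0.99 and -0.058. In these the share of all genes called higher went from 31.4% to 49.4%, 53.9% and 18.5%, and that of genes called lower from 20.1% to 9.59%, 6.75% and 19.6%. For D_MgHCF against Unt, TPM gave 4 genes higher and 21 lower and quantile normalization 5 and 31. For D_DXZ against Unt, TPM gave 21 higher and 5 lower, and quantile normalization 12 and 28. Of 473 protein-coding genes outside the family and not mitochondrially encoded, with a mean FPKM of at least 100 (a limit chosen after seeing the data), 455 rose and 4 fell in DOX, with a median of 1.81. The 73 ribosomal protein genes at the same limit had 71 higher and a median of 1.64. For D_MgHCF against DOX, 452 of the 473 fell, with a median of -1.65, beside -1.68 for the 73. The mean behind this limit covers all groups, so that genes could pass it through the groups where they are high. By group mean, 62 of the 93 family genes reached 100 FPKM in Unt and 75 in DOX. These counts of abundant genes are therefore descriptions only. The part of abundance or of library scaling in the family's change was not tested. The share of reads on mitochondrially encoded genes was 1.19% to 1.41% in Unt and 1.76% to 3.16% in D_MgHCF, and 2.73% to 2.89% in DOX and 2.73% to 3.27% in D_DXZ.

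Other components of translation were read beside the family and beside all genes, of which 18.6% rose and 19.9% fell in DOX and 31.4% rose and 20.1% fell in D_MgHCF against DOX. Fau, which encodes a ribosomal protein fused to a ubiquitin-like sequence, rose in DOX by 1.77 ± 0.243 (SE) and fell in D_MgHCF against DOX (-1.68 ± 0.243). Rack1, a scaffold on the small subunit, rose in DOX by 1.26 ± 0.157 and fell in D_MgHCF against DOX (-1.56 ± 0.157). Of 14 other mRNAs with a TOP motif, 13 rose in DOX (median 1.58, or 0.22 in TPM and -0.074 after quantile normalization), among them Eef1a1 (1.65 ± 0.485), Tpt1 (1.88 ± 0.254) and Pabpc1 (1.64 ± 0.184), and Eif4b fell by 1.87. In D_MgHCF against DOX, 13 of the 14 fell, Hnrnpa1 the most (-2.72 ± 0.152), and Eif4b did not pass. Of 9 regulators of their translation, 1 rose and 5 fell in DOX, but none rose and 7 fell both in TPM and over the summed reads. Larp1, which binds the TOP motif, fell from 51.4 ± 2.83 FPKM (SD, n = 3) to 13.7 ± 0.866, and Myc, a driver of ribosomal protein transcription, from 68.7 ± 5.16 to 5.55 ± 1.74. Rps6kb1, an S6 kinase, rose by 0.80 ± 0.251, and Mtor (-0.13 ± 0.169) and Eif4ebp1 (0.25 ± 0.163) did not pass. In D_MgHCF against DOX, 2 of the 9 rose and 3 fell, in place of which 6 rose and 2 fell in TPM and over the summed reads. Myc rose by 2.20 ± 0.339, Eif4ebp1 fell by 1.96 and Larp1 (0.12 ± 0.303) did not pass.

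Of 15 assembly and escort factors tested, 5 rose and 7 fell in DOX with the deposited scaling, against none and 12 in TPM and 1 and 10 over the summed reads, with Bop1, a factor of large subunit assembly, up by 1.31 ± 0.121 and Rrs1, which brings Rpl5 and Rpl11 into the nascent subunit, down by 2.78. Tsr2, the escort of Rps26, rose by 0.79 ± 0.161 in DOX and was lower in D_MgHCF than in DOX by 1.94 and than in Unt by 1.15. Of 77 tested mitochondrial ribosomal proteins, 34 rose and 23 fell in DOX (median 0.22), and 10 rose and 50 fell in D_MgHCF against DOX (median -0.78). Of 66 tested translation factors, 32 rose and 18 fell in DOX (median 0.36), and 9 rose and 43 fell in D_MgHCF against DOX (median -0.95). The translation factors are all protein-coding names that start with Eif or Eef. They share genes with the TOP mRNAs (such as Eef1a1 and Eif4b), the regulators (Eif4e) and the assembly factors (Eif6), so these groups are not separate. In TPM both medians turned for the mitochondrial ribosomal proteins, to -1.07 (4 higher and 56 lower) and 0.30 (32 and 10), and for the translation factors, to -0.92 (8 and 43) and 0.19 (27 and 23). Over the summed reads the DOX medians also turned, to -0.65 and -0.45, and after quantile normalization to -0.048 and -0.16. Of 5 subunits of RNA polymerase I, which transcribes rRNA, 1 rose and 2 fell in DOX, and none and 5 in TPM. With the deposited scaling these groups include both rises and falls, whereas 84 of the 89 ribosomal protein genes rose and none fell. Most genes of some other sets rose too. Of the 473 genes outside the family with a mean FPKM of at least 100, 455 rose and 4 fell in DOX, but that limit favours genes that are high in DOX. Of the 14 other mRNAs with a TOP motif, 13 rose and 1 fell. The difference between any of these groups and the family was not tested. Among 289 ribosomal protein pseudogenes, 164 were tested, of which 90 rose and none fell in DOX (28 and 7 in TPM, 57 and 6 over the summed reads), and they held 0.219% to 0.513% of reads in a library.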

How the data were processed

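The authors deposited FPKM values of 54345 genes in 12 libraries, made from poly(A) RNA with paired-end reads. The submitters' processing notes name HISAT2 2.0.5 and the builds GRCm38 and mm10. The counting program, its strand setting and the annotation release are not given in the sources used here. Multiplied by gene length, the FPKM of each library were whole multiples of a single step within a tolerance of 0.05 for 100% of values, which gave the reads per gene used for shares, voom and depth. No sample column was left unused (0).

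limma 3.58.1 (R 4.3.3) was fitted to log2(FPKM + 1) in 1 model of 4 groups with a mean-dependent prior and no covariate, for the 25044 genes whose FPKM exceeded 0 in 3 or more libraries. The pseudocount of 1 makes changes of low genes smaller. Calls were made at a Benjamini-Hochberg adjusted p under 0.05 over all genes tested. Medians of the family cover all 93 genes, also those listed at 0 and not tested. Shares of reads were compared with two-sided exact permutation tests. The fits were tested on simulated data. The members, roles, lists and tests were chosen with earlier results of these data known. Members were named by role, as paralogue or copy beside a partner, as 1 of the 5 largest rises or falls in DOX against Unt, D_MgHCF against DOX and D_MgHCF against Unt, or as called against the majority. Rpl17, Rpl18, Rpl24, Rps2 and other members outside this rule were named after their values were seen. Start windows came from RefSeq (GRCm38.p6), and copies from BLAST 2.17.0 searches of GENCODE M21 transcripts. Alternatives were pseudocount, filters, unadjusted p, replicate block, fits of 2 groups, TPM, summed reads, quantile normalization, voom, a length trend and each library left out. Ranks, sums of copies and the abundant genes outside the family were chosen after seeing the data. Results of some genes are not reported here.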

Additional observations from a re-analysis of the deposited data

Results flagged for a closer look

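Between the agents added to DOX, 85 of the 89 ribosomal protein genes tested were lower with MgHCF than with DXZ and 1, Rpl3l, was higher, by the direct test of D_MgHCF against D_DXZ with limma. In TPM 43 were lower (median -0.30 in place of -1.33), and after quantile normalization 19 were lower and 6 higher (-0.12). The call of Rpl3l was lost with voom, the 2-group fit, no filter and an FPKM of at least 1. The difference was -2.10 ± 0.224 (SE) for Rps26 and 0.94 ± 0.323 for Rpl3l, which overlapped between the libraries of the 2 groups.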

How the results depend on the processing

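The direction of the family's change in DOX and D_DXZ against Unt and in D_MgHCF against DOX and D_DXZ was kept under the other pseudocount, the filters, the replicate block, the 2-group fits, voom, removal of a length trend and each library left out, by the median or by the counts of genes called. The size of the change moved with the library scaling. After quantile normalization the sign of the median also turned for DOX and D_DXZ against Unt, but this setting cannot show a shift that all top-ranked genes share. In TPM the median differences were 0.24 (DOX against Unt), 0.10 (D_DXZ against Unt), -0.45 (D_MgHCF against DOX) and -0.30 (D_MgHCF against D_DXZ), over the summed reads 0.64, 0.52, -0.69 and -0.55, and after quantile normalization -0.066, -0.061, -0.17 and -0.12, with -0.035 for D_DXZ against DOX. Counts of genes higher and lower in TPM were 36 and 2 for DOX against Unt, 21 and 5 for D_DXZ against Unt, and 2 higher for D_MgHCF against DOX, with 43 lower for D_MgHCF against D_DXZ. With quantile normalization they were 15 and 23, 12 and 28, 3 and 23, and 6 and 19. For D_MgHCF against Unt the genes lower were 21 in TPM, 8 over the summed reads, 8 with the length trend removed, 31 after quantile normalization (with 5 higher), 3 without a filter, 2 in the 2-group fit and 8 at an unadjusted p, at which 7 were lower in D_DXZ against DOX. The single gene higher in D_MgHCF against DOX and against D_DXZ was lost (0) with an FPKM of at least 1 in 3 libraries, no filter, the 2-group fit and voom. Family-centred counts on the mean were 30 above and 11 below in DOX against Unt and 8 and 32 in D_MgHCF against DOX. The difference in share of reads between DOX and Unt was 3.24 points with pseudogenes and 2.72 as a share of summed FPKM, on which it was 1.83 for D_DXZ against Unt and -0.887 for D_DXZ against DOX. The cause of these movements was not tested.

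Same-numbered libraries did not pair: over 18 pairs the correlation of deviations ranged from -0.314 to 0.306, 2 were over 0.1, and 6 of 12 libraries correlated best with their own number. With the replicate block, 3 genes were lower in D_MgHCF against Unt in place of 5, and no other count moved by more than 1.5 times.

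Leaving out 1 library gave 83 to 86 genes higher and 0 to 0 lower for DOX against Unt (median 1.54 to 1.69), 80 to 87 and 0 to 0 for D_DXZ against Unt (1.21 to 1.35), 2 to 13 and 3 to 14 for D_MgHCF against Unt (-0.17 to 0.20), 0 to 0 and 0 to 0 for D_DXZ against DOX (-0.40 to -0.19), 0 to 2 and 84 to 87 for D_MgHCF against DOX (-1.88 to -1.39), and 0 to 1 and 81 to 85 for D_MgHCF against D_DXZ (-1.55 to -1.10). The family-centred counts above and below were 13 to 20 and 15 to 35 for DOX against Unt, 11 to 16 and 8 to 23 for D_MgHCF against Unt, and 13 to 25 and 9 to 18 for D_MgHCF against DOX. The differences in share were 2.85 to 3.12 points (DOX against Unt), 2.32 to 2.59 (D_DXZ against Unt), -0.345 to 0.711 (D_MgHCF against Unt), -0.679 to -0.360 (D_DXZ against DOX), -3.34 to -2.29 (D_MgHCF against DOX) and -2.84 to -1.78 (D_MgHCF against D_DXZ).

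Of 3190 values of named genes under an alternative, 2965 kept direction and side of the threshold, 123 lost their call, 57 gained one and 45 changed sign. For DOX against Unt, those that changed sign in TPM were Rpl5 (-0.079), Rps6 (-0.020), Rps14 (-0.11), Rpl3 (-0.24), Rpl7a-ps5 (-0.23), Rpl7a (-0.19), Rpl36a-ps1 (-0.10) and Rpl13a (-0.52, and -0.11 over the summed reads). After quantile normalization they were Rplp1 (-0.20), Rpl5 (-0.40), Rpl11 (-0.15), Rpl23 (-0.23), Rps3 (-0.12), Rps6 (-0.64), Rps14 (-0.60), Rps26 (-0.065), Rps27a (-0.12), Rpl10 (-0.51), Rpl22 (-0.13), Rpl3 (-0.71), Rpl7 (-0.087), Rpl39 (-0.10), Rps4x (-0.066), Rpl7a-ps5 (-0.054), Rpl7a (-0.33), Rpl27 (-0.24), Rpl13a (-0.33), Rpl36 (-0.33) and Rpl4 (-0.31). For D_MgHCF against DOX, TPM turned Rps27a (0.12), Rpl7a (0.33, and 0.077 over the summed reads) and Rpl36a-ps1 (0.049), and quantile normalization Rpl23 (0.23), Rps6 (0.20), Rps14 (0.19), Rps27a (0.30), Rpl10 (0.069), Rpl41 (0.034), Rpl7 (0.046), Rpl7a (0.49), Rpl27 (0.011) and Rpl35 (0.078). For D_MgHCF against Unt it turned Rps4x (-0.27). Sequencing depth covers counting error only, which limits Rpl3l and the low copies most.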
